A study of Homo sapiens with 7 samples.

Results

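The genes described are 5 ligands of the epidermal growth factor (EGF) family (HBEGF, AREG, EREG, TGFA and NRG1), 2 of its receptors (EGFR and ERBB2) and the receptor inhibitor ERRFI1, 8 genes in all. They were chosen by name, and each was read from every probe set that the annotation of the Affymetrix array gives to that gene alone. This gave 28 of the 41091 probe sets with a single gene, for 7 of the 8 genes. AREG, which encodes amphiregulin, had no such probe set in the annotation at hand and was not analysed here. All values are from HT1080, an established human fibrosarcoma cell line, and each of the 7 cultures was read on 1 array. A single compound was given for 2 h in 4 cultures. Catechin was used at 11.25 ng/ml, epicatechin and taxifolin were both used at 6.25 ng/ml, and resveratrol was used at 2195 ng/ml. In 2 cultures the cells had 5% serum for 2 h, in one labelled pycnogenol-positive (pycnogenol serum below) and in the other labelled control serum. One culture stayed untreated, with neither a time nor a solvent named in its labels, and the origin of the control serum is not named either. With 1 array per group there is no replicate error and no p-value, so each difference below describes a pair of arrays.

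The values are MAS5 signals, a brightness per probe set on a linear scale, which can be compared between arrays but not between probe sets. A gene was compared where the mean of its log2 signal reached 8.07, a signal of 269, which is the median of all 19775 genes, and 9888 genes passed. Of the 28 probe sets 10 reached this level, from 6 genes: ERRFI1, EGFR, ERBB2, HBEGF, TGFA and NRG1. The other 18 had signals of 2.31 to 310, and 15 of them were below 269 on all 7 arrays. A difference below is a subtraction of log2 signals, the array named first minus its partner, and 2-fold or more was counted as a call. The arrays had median signals of 114 to 136. Mesenchymal markers fitted the label, with 8 of 10 above the filter, including VIM and FN1, and 0 of 8 epithelial and 0 of 5 endothelial markers were above it. Of 8 blood cell markers 6 had a probe set, of which HBB and CD79A were above it, and the summed signal was 986 to 1306 over the 7 arrays.

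EGF family ligands are made as membrane-bound precursors, which metalloproteases of the ADAM group cut free. Ligand binding pairs the receptors EGFR, ERBB2, ERBB3 and ERBB4 with one another and switches on their kinases, which feed the RAS-ERK and PI3K pathways. ERBB2 has no known ligand and acts as a partner. ERRFI1, also called MIG6, is itself induced by growth factors and binds the kinase domain of EGFR and ERBB2 to shut it off, so it closes a negative feedback loop.

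The promoter windows of 4 genes are shown because these genes carry the patterns below: ERRFI1 and EGFR had the largest differences on the serum arrays, and TGFA had nearly the same profile over the 7 arrays as one of the 2 HBEGF probe sets above the filter, though not as the other. The sequences are from RefSeq (GRCh38.p14) and run 5′ to 3′ on the strand of the gene, from 250 bases before to 50 after the start of transcription. EGFR and TGFA each have 2 windows in the table, and the one listed first is shown. Capitals mark motif matches on either strand.
ERRFI1, chr1:8026260-8026559, minus strand: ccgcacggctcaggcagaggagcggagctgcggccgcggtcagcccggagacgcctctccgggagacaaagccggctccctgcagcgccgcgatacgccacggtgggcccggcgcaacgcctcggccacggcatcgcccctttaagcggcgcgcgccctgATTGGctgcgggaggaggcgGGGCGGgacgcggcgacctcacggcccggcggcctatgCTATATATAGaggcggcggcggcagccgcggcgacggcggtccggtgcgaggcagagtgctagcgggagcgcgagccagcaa
EGFR, chr7:55018767-55019066, plus strand: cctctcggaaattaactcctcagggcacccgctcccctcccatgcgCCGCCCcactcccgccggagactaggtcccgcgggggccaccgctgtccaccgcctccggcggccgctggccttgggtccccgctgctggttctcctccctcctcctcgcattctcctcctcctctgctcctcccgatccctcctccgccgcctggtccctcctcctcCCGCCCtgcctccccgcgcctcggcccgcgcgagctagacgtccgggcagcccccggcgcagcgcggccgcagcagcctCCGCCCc
HBEGF, chr5:140346554-140346853, minus strand: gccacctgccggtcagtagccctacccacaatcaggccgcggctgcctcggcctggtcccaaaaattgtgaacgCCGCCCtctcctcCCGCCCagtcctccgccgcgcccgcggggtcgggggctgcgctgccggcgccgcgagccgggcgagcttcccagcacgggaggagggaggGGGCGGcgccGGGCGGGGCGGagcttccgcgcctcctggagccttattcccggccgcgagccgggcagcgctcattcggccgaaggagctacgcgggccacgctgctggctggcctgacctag
TGFA, chr2:70553777-70554076, minus strand: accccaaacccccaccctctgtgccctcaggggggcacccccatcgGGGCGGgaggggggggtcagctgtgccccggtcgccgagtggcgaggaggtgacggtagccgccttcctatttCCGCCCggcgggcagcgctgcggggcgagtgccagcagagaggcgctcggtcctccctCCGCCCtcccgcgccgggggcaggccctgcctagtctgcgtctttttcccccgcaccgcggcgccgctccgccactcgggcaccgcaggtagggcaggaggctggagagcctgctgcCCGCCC
The AP-1 motif was searched as TGANTCA. The CRE motif, bound by CREB, was searched as TGACGTCA. The GC box, bound by SP1 factors, was searched as GGGCGG. The CCAAT box was searched by the letters of its name. The TATA box was searched as TATAAA. The CArG box of the serum response factor and the MEF2 site were searched by their usual degenerate patterns. The GC box was found in all 4 windows, with 1 match in ERRFI1, 3 in EGFR, 5 in HBEGF and 4 in TGFA, and 45.0% of all 35116 windows hold it. The 4 windows are 74.7% to 75.3% G and C, while the median of all windows is 58.7%. Motif shares among windows of equal G and C content were not tested. A pair of the GC boxes in HBEGF share a base. ERRFI1 also had a CCAAT box, which 34.6% of all windows hold, and a MEF2 match 32 bases before the start, which 2.99% hold. AP-1, CRE, TATA box and CArG matches were found in none of the 4 windows, against 7.71%, 1.85%, 11.5% and 1.29% of all windows. For the TATA box this holds for the letters TATAAA alone, and looser TATA patterns were not searched. The MEF2 match in ERRFI1, CTATATATAG, holds the letters TATATATA, which that search does not count. All marked motifs are matches of letters, not shown binding sites, and no data on binding were at hand.

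**Figure D1:**
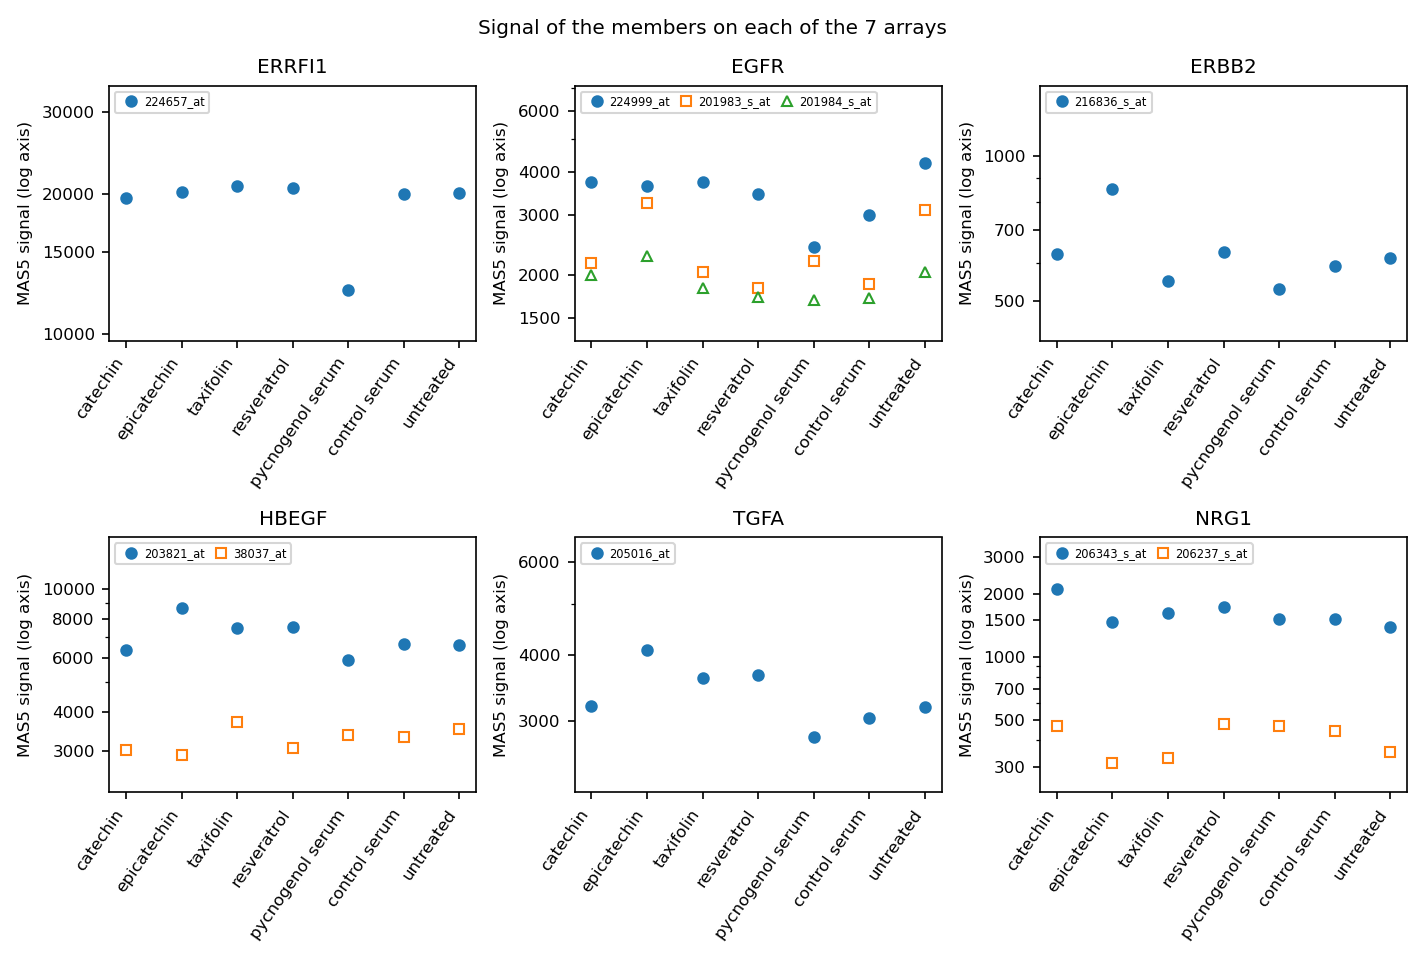
MAS5 signal (log axis) of the 10 probe sets above the signal filter on each of the 7 arrays, 1 point per array and probe set, with a panel per gene and filled points for the probe set that stands for the gene. ERRFI1 is at 12398 on the pycnogenol serum array and between 19612 and 20822 on the other 6, while the probe sets of EGFR, HBEGF and NRG1 do not all follow one pattern.

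No gene of the 6 differed by 2-fold in any of the 8 comparisons made. The share of all 9888 genes called in either direction was 0.536% for pycnogenol serum against control serum, 2.24% for pycnogenol serum against untreated and 1.2% for control serum against untreated. It was 0.455% for catechin, 0.314% for epicatechin, 0.465% for taxifolin and 0.728% for resveratrol against untreated, and 0.324% for taxifolin against epicatechin. At shares this low, 0 of 6 is close to what the background gives. The differences of these 6 genes described below are therefore all smaller than 2-fold.

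The feedback inhibitor ERRFI1 was lower with pycnogenol serum than on any other array. Its probe set read 12398 with pycnogenol serum, against 20038 with control serum and 20064 in the untreated culture. It read 19612 with catechin, 20159.7 with epicatechin, 20822 with taxifolin and 20634 with resveratrol. The 6 arrays other than pycnogenol serum thus lay within 0.086 on the log2 scale, and the pycnogenol serum array lay 0.66 below the lowest of them. Against control serum the difference was -0.69, a signal 1.62-fold lower with pycnogenol serum, and against the untreated array it was -0.69 too. Both comparisons share the pycnogenol serum array. Control serum itself differed from untreated by -0.0019, or by 0.17 with each array centred on its median, under which pycnogenol serum was at -0.58 against untreated. These are readings of whole cultures, in which fewer expressing cells and less RNA per cell cannot be told apart.

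Among the 9888 genes, 242 differed between pycnogenol serum and control serum by at least as much as ERRFI1 in either direction, which is 2.45%. Among the 4944 genes above the 75th percentile of signal it was 31, or 0.627%. Brighter genes differed less, with a standard deviation of 0.21 over those 4944 and 0.28 over all genes compared. ERRFI1 is a bright gene, and the counts over all genes here are not matched for brightness. The pycnogenol serum array was the lowest of the 7 for 21.2% of genes, ERRFI1 among them, and 64 genes had a gap to the next array as wide as that of ERRFI1 or wider. ERRFI1 was the only 1 of those 64 whose other 6 arrays spanned 0.086 or less. These counts were made after the values of ERRFI1 had been seen and describe these 7 arrays. ERRFI1 has a single probe set, so no second reading of the gene was at hand.

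**Figure D2:**
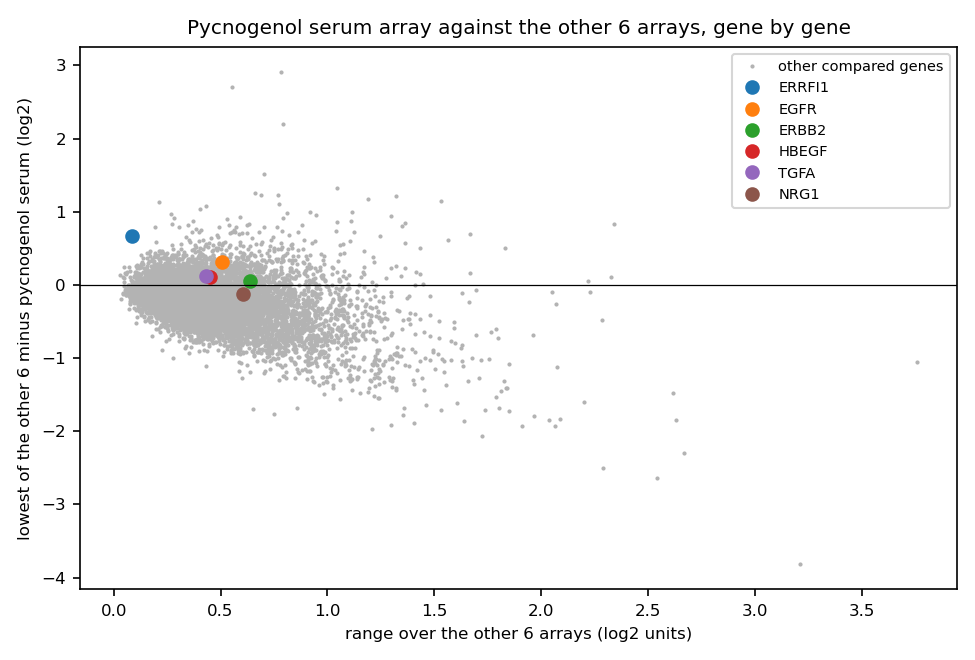
Each point is 1 of the 9888 genes compared. The y axis is the lowest log2 signal of the other 6 arrays minus that on the pycnogenol serum array, above 0 where pycnogenol serum is the lowest of all 7, and the x axis is the log2 range of the other 6. ERRFI1 lies at 0.66 and 0.086, at the left edge of the cloud.

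EGFR, the receptor that most of these ligands share, was lower on both serum arrays than in the untreated culture with each of its 3 probe sets above the filter. The brightest of them, 224999_at, read 2411 with pycnogenol serum and 2989 with control serum, against 4242 in the untreated culture. It read 3747 with catechin, 3650 with epicatechin, 3743 with taxifolin and 3455 with resveratrol. Both serum arrays lay below all 5 arrays without test serum, and the untreated array was the highest of the 7. The difference from untreated was -0.82 with pycnogenol serum, 1.76-fold, and -0.51 with control serum, 1.42-fold. Set against the average of all 5 arrays without test serum, they were -0.64 and -0.33. Of all genes, 3.99% differed from untreated by at least as much with pycnogenol serum, and 11.4% with control serum.

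The other 2 EGFR probe sets gave smaller or different patterns. The signal of 201983_s_at was 2207 with pycnogenol serum, 1887 with control serum and 3106 in the untreated culture. With the compounds it was 2172 for catechin, 3249 for epicatechin, 2044 for taxifolin and 1837 for resveratrol, so the serum arrays lay inside the range of the other 5. The signal of 201984_s_at was 1691 with pycnogenol serum, 1714 with control serum and 2039.8 in the untreated culture, and 1726 to 2274 with the 4 compounds, so both serum arrays lay just below the rest. Between pycnogenol serum and control serum the 3 probe sets differed by -0.31, 0.23 and -0.020, and thus gave no common direction. Catechin, taxifolin and resveratrol were also below untreated with all 3 probe sets, by 0.15 to 0.60 for taxifolin, while epicatechin was below with 1 of 3. All of these comparisons share the untreated array. Set against the average of the other arrays without test serum, the brightest probe set was at -0.0059 for catechin, -0.0074 for taxifolin and -0.15 for resveratrol.

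ERBB2, the partner receptor, had 1 probe set above the filter, which read 529 with pycnogenol serum, 589 with control serum and 612 in the untreated culture. It read 626 with catechin, 853 with epicatechin, 548 with taxifolin and 632 with resveratrol. The epicatechin array stood highest, by 0.48 over untreated, and the pycnogenol serum array was lowest, by -0.21 against untreated and -0.16 against control serum. Of all genes, 5.12% differed from untreated by at least as much as ERBB2 did with epicatechin. Its other 2 probe sets had signals of 4.79 to 130.

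The ligand genes HBEGF and TGFA, which both encode ligands of EGFR, had a similar profile over the arrays with the brightest HBEGF probe set. The other HBEGF probe set above the filter did not share it. HBEGF, heparin-binding EGF-like growth factor, read 5913 with pycnogenol serum, 6655 with control serum and 6576 in the untreated culture with probe set 203821_at. With catechin it read 6358, with epicatechin 8686, with taxifolin 7467 and with resveratrol 7534. TGFA, transforming growth factor alpha, read 2807 with pycnogenol serum, 3042 with control serum and 3191 in the untreated culture. With catechin it read 3212, with epicatechin 4098, with taxifolin 3624 and with resveratrol 3678. With these probe sets both genes were highest with epicatechin, at 0.40 and 0.36 above untreated, and lowest with pycnogenol serum, at -0.17 and -0.12 against control serum.

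With each profile centred on its mean, the root mean square difference of HBEGF and TGFA over the 7 arrays was 0.042 on the log2 scale. Among 4428 candidate genes with a range of at least 0.5, TGFA was the closest to HBEGF and HBEGF the closest to TGFA. The range of 0.5 was set after the values were seen, in place of a preset range of 1 that neither gene reached. Other genes came near, with SEC23A, a coat protein of transport vesicles, at 0.044 from TGFA and at 0.072 from HBEGF. The second HBEGF probe set, 38037_at, did not share this pattern. It read 3389 with pycnogenol serum, 3321 with control serum and 3526 in the untreated culture, and with the compounds 3017 for catechin, 2918 for epicatechin, 3727 for taxifolin and 3073 for resveratrol. Its lowest array was thus epicatechin, at -0.27 against untreated where 203821_at had 0.40. It lay 0.24 from TGFA and 0.24 from the first HBEGF probe set.

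Both serum arrays lay below all 5 others for TGFA and EGFR, 2 of the 6 genes, and above all 5 for none. Over all genes 16.1% lay below and 13.5% above, 29.6% together, so 2 of 6 is close to the background. Under centring of each array on its median, which moved the median of all genes to 0.13 for pycnogenol serum and 0.18 for control serum against untreated, neither gene lay outside the other 5. Where a gene was read as the average over its probe sets, dim ones included, none did either. The share of all genes outside was not computed under these other readings.

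NRG1, neuregulin 1, which binds ERBB3 and ERBB4 rather than EGFR, was highest with catechin. Its brighter probe set, 206343_s_at, read 2108 with catechin, 1462 with epicatechin, 1613 with taxifolin, 1734 with resveratrol, 1515 with pycnogenol serum, 1516 with control serum and 1384 in the untreated culture. The difference of catechin from untreated was 0.61, and 3.12% of all genes differed by as much. Against the average of the other arrays without test serum the difference of catechin was smaller. The untreated array was the lowest of the 7 with this probe set, so the other compounds were above it too. They lay above it by 0.079 with epicatechin, 0.22 with taxifolin and 0.33 with resveratrol. The second probe set, 206237_s_at, read 467 with catechin against 351 untreated, a difference of 0.41, but its highest array was resveratrol with 478. Both probe sets were above untreated on the catechin, resveratrol and both serum arrays, by 0.13 to 0.42 with pycnogenol serum. With 206343_s_at set against the average of the 5 arrays without test serum, pycnogenol serum was at -0.12 and control serum at -0.11. The 2 serum arrays differed by -0.0016 and 0.079 with the 2 probe sets. EREG, which encodes epiregulin, had 2 probe sets with signals of 2.31 to 60.3, all far below the filter, so no difference is given.

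**Figure D3:**
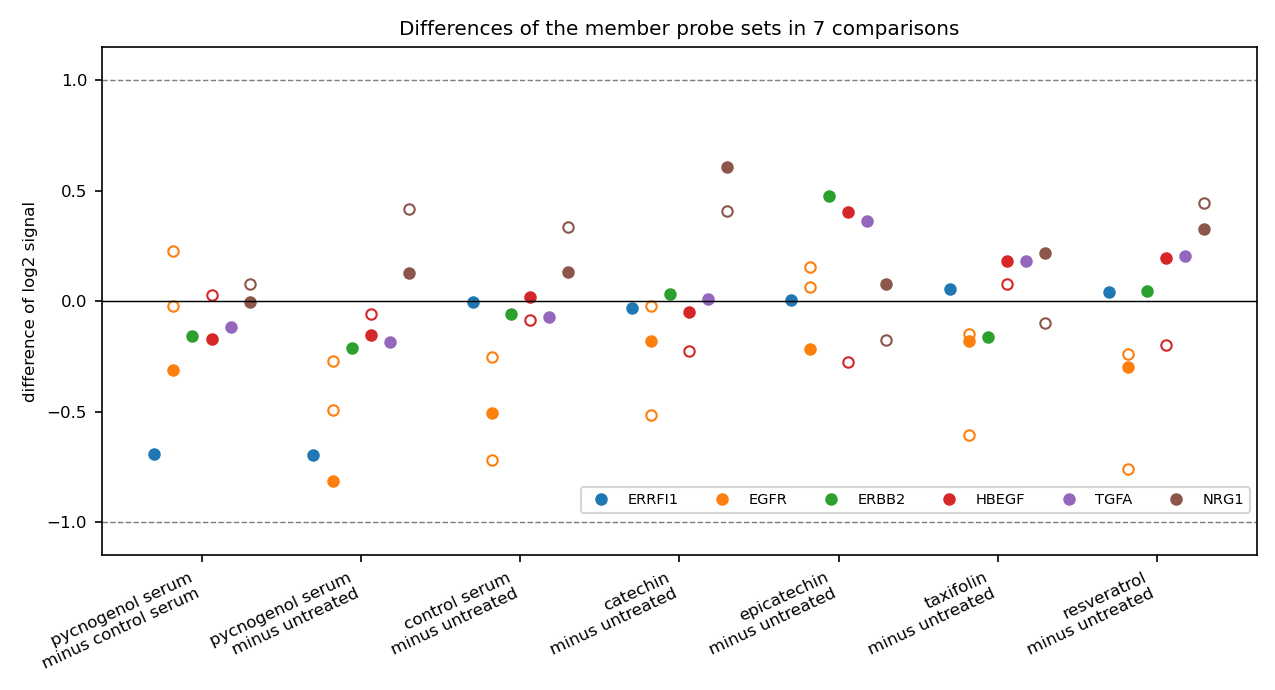
Difference of log2 signal for the 10 probe sets in 7 comparisons, with filled points for the probe set that stands for the gene and open points for the others, and dashed lines at 2-fold. All points lie between the dashed lines, with EGFR at -0.82 and ERRFI1 at -0.69 for pycnogenol serum against untreated as the lowest filled points.

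At a threshold of 1.5-fold, ERRFI1 was the 1 gene of 6 counted for pycnogenol serum against control serum, where 4.24% of all genes were counted. For pycnogenol serum against untreated EGFR and ERRFI1 were counted, against 10% of all genes. NRG1 was counted for catechin, against 3.55% of genes, and no member for control serum (7.83% of genes), epicatechin (2.82%), taxifolin (3.3%) or resveratrol (4.46%) against untreated. For NRG1 the untreated array was the lowest of the 7. ERBB2 was counted for taxifolin against epicatechin, against 3.47% of genes. The median difference of the 6 genes was -0.16 for pycnogenol serum against control serum, with all 6 below 0. Of all genes 48.4% lay below 0, and the median of all genes was 0.0082. For NRG1 the difference between the sera was -0.0016, and the second probe sets of HBEGF and NRG1 lay above 0, as did 1 of the 3 of EGFR. With probe sets averaged, dim ones included, TGFA was at 0.60 and ERBB2 at 0.75, so that a common direction was not seen under that reading.

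Taxifolin and epicatechin were given at the same concentration and time. Both are flavonoids of pine bark, and taxifolin carries a keto group on its central ring that epicatechin lacks. ERBB2 read 548 with taxifolin and 853 with epicatechin, a difference of -0.64, and 2.58% of all genes differed by as much. EGFR read 2044 with taxifolin and 3249 with epicatechin with 201983_s_at, a difference of -0.67, but the other 2 probe sets gave 0.037 and -0.31. HBEGF differed by -0.22 and 0.35 with its 2 probe sets, TGFA by -0.18, NRG1 by 0.14 and 0.073, and ERRFI1 by 0.047. With 1 array each, no interval can be given for these differences, which neither shows that the compounds act alike nor that they do not. Catechin, the stereoisomer of epicatechin, was given at 11.25 ng/ml against 6.25 ng/ml and was not compared with it.

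Further genes of the pathway were read from lists chosen by name. Of 8 other family ligands and receptors, 7 had a probe set, and none was above the filter. ERBB3 came nearest with a geometric mean signal of 208, and its value of 366 with resveratrol was the only one of its 7 above 269. EGF itself averaged 123 and ERBB4 52.6. Of 20 genes for ligand release and receptor traffic, 18 were compared and none differed by 2-fold in any of the 7 comparisons. Of all genes 0.314% to 2.24% did, so 0 of 18 is close to the background. ADAM17 and ADAM10 are named for their role and not for their differences. The sheddase ADAM17, which frees several of the ligands, read 4110 with pycnogenol serum, 4838 with control serum and 5359 in the untreated culture, and ADAM10, a related protease, read 12534 with pycnogenol serum, 12881 with control serum and 13502 in the untreated culture. RHBDF1, an inactive rhomboid that helps ADAM17 mature, was at -0.93 with control serum against untreated and at 0.32 with pycnogenol serum against control serum. CBLB, a ubiquitin ligase that acts on active receptors, was at -0.61 with control serum against untreated. The untreated array was the highest of the 7 for RHBDF1 and CBLB. Against the average of the 5 arrays without test serum, control serum was at -0.79 for RHBDF1 and -0.52 for CBLB. USP8, a deubiquitinase on endosomes, was at -0.37 with pycnogenol serum against control serum.

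Of 21 receptor adaptors and RAS-ERK kinases, 15 were compared and the others were not analysed here. None differed by 2-fold on the serum arrays, where 0.536% to 2.24% of all genes did. The list medians were 0.043 for control serum against untreated and -0.0077 for pycnogenol serum against control serum. MAP2K1, which encodes the kinase MEK1, read 4345 with pycnogenol serum and 6705 with control serum, a difference of -0.63, and 4144 in the untreated culture. The other genes named by rule were MAPK3, which encodes ERK1, at -0.63 with control serum against untreated but at -0.24 against the average of the 5 arrays without test serum, since the untreated array was its highest of the 7, and PTPN11, a phosphatase that promotes RAS activation, at -0.30 with pycnogenol serum against control serum. GAB1, a docking protein, was the 1 gene of this list past 2-fold in any comparison, at 1.05 with resveratrol with a signal of 524 against 254 untreated, beside 0.415% of all genes higher by 2-fold, and it is named because of that value. The untreated array was the lowest of the 7 for GAB1, and against the average of the other 4 arrays without test serum resveratrol was at 0.53, under 2-fold. Of 10 genes of the PI3K and STAT arm 7 were compared and none differed by 2-fold, where 0.314% to 2.24% of all genes did. PIK3R1 was at -0.29 with control serum against untreated, or -0.13 against that average of 5 arrays, and AKT2 was at 0.18 with control serum against untreated. AKT1 was at 0.49 and STAT3 at 0.34 with pycnogenol serum against control serum.

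Genes known to be induced through ERK were mostly lower on both serum arrays than in the untreated culture. Of 20 such genes 18 were compared. With pycnogenol serum against untreated 15 lay below 0 and 2 were lower by 2-fold, with a median of -0.46, while 47.5% of all genes lay below 0 and the median of all genes was 0.017. With control serum against untreated 15 lay below 0 and 1 was lower by 2-fold, with a median of -0.30, beside 48.7% of all genes and a median of 0.0076. The share of all genes lower by 2-fold was 1.51% with pycnogenol serum and 0.758% with control serum. Both comparisons share the untreated array. With each array centred on its median, 14 of 18 lay below 0 with pycnogenol serum and 11 with control serum, and 15 lay below the median of all genes with each serum.

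ETV5, a transcription factor induced by ERK, read 3815 with pycnogenol serum and 4213 with control serum, against 8557 in the untreated culture and 6757 to 8560.5 with the compounds. It was the gene past 2-fold with control serum, at -1.02 against untreated and at -0.89 against the average of the 5 arrays without test serum, where no gene of the list was past 2-fold with control serum. SRF, the serum response factor, went the other way at 0.68 with control serum against untreated. Between pycnogenol serum and control serum the list median was -0.050, with 12 of 18 below 0 beside 48.4% of all genes. This depended on the reading, with 8 of 17 below 0 and a median of 0.011 when probe sets were averaged. Without _x_at and _s_at probe sets 7 of 13 lay below 0, and with median centring 15 of 18 did. Lower by 2-fold was 1 of the 18, beside 0.314% of all genes. That gene was EGR1, an immediate early transcription factor, at -1.44, with a signal of 175 with pycnogenol serum against 475 with control serum. LIF, a cytokine of the interleukin 6 family, was next at -0.71, with a signal of 882 with pycnogenol serum against 1439.7 with control serum. With the compounds the list medians were -0.072 for catechin, 0.067 for epicatechin, 0.0042 for taxifolin and -0.17 for resveratrol. No gene of the list was past 2-fold with a compound, beside 0.314% to 0.728% of all genes. The medians of all genes were 0.035 for catechin, 0.032 for epicatechin, 0.032 for taxifolin and 0.025 for resveratrol. In the list the numbers below 0 were 14 of 18 for catechin and 14 for resveratrol, close to the 15 with each serum, and 6 for epicatechin and 8 for taxifolin. Of all genes 42.4% lay below 0 for catechin, 45.2% for resveratrol, 42.7% for epicatechin and 42.8% for taxifolin. Whether the sera and the compounds differ in the number of list genes below 0 was not tested.

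**Figure D4:**
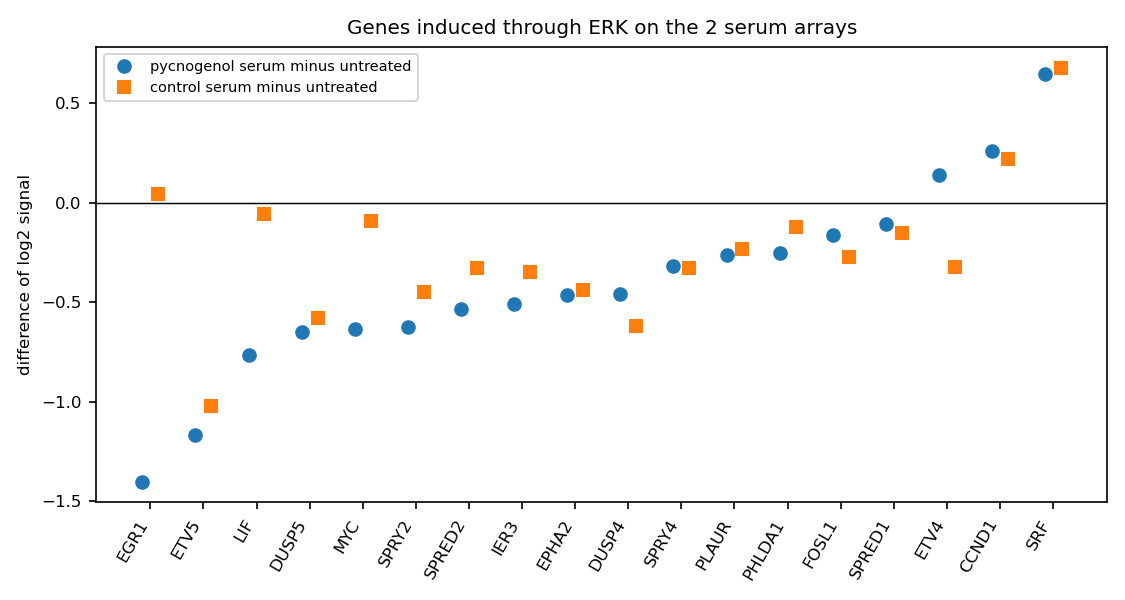
Difference of log2 signal from the untreated array for the 18 genes induced through ERK, with circles for pycnogenol serum and squares for control serum, ordered by the pycnogenol serum value. Most points of both kinds lie below 0, with SRF and CCND1 above it on both arrays, and EGR1, LIF and MYC are well below 0 with pycnogenol serum alone.

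A rule was set to name the genes most like each member whose log2 signal ranged over at least 1 on the 7 arrays, and no member did, with ranges of 0.55 for TGFA to 0.82 for EGFR. With the range lowered to 0.5 after the values were seen, the closest to ERRFI1 by root mean square difference of the centred profiles were DHX40, an RNA helicase, at 0.065 and MIR100HG, a long noncoding RNA, at 0.075. DHX40 read 1396 with pycnogenol serum, 2109.8 with control serum and 2103 in the untreated culture. The closest to EGFR were TTC13 at 0.051 and EFCAB7 at 0.055. With 4428 candidates and 7 arrays some genes come close to any profile, so these names describe likeness on these arrays and nothing further.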

How the data were processed

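RNA of 7 HT1080 cultures was hybridised to Affymetrix arrays, 1 per group. The values are linear signal intensities that the authors made with MAS5, per the submitters' processing notes, and its version is not given in the sources used here. All arrays have a trimmed mean signal of 1000.1 (2% left out at each end). Probe sets were named with the platform annotation and symbols updated by gene ID with RefSeq. Of 54675 probe sets, 41091 had 1 gene, 1801 named several, and 11777 had no entry.

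A floor was set at 34.9, the 25th percentile over all arrays, and log2 taken after it. The brightest probe set by mean log2 value stood for its gene. No test was run, since each group held 1 array and array number limits the precision. The genes, lists and settings were chosen with earlier results of these data known. Named were all members and, from each list, the 2 genes with the largest absolute difference with control serum and between the sera. ADAM17, ADAM10, GAB1, ERBB3, EGF, ERBB4 and the genes nearest to a member's profile lie outside this rule, as do markers and the ERK-induced genes named in a caption. Quantile and pairwise loess normalization (span 0.3) used limma 3.58.1 in R 4.3.3, and all else Python 3.11.15 with pandas 2.3.3. Other alternatives were centring on the median, no floor or one at the 40th percentile, other readings of a gene, no filter or one at the 75th percentile, thresholds of 1.5-fold and 3-fold, and another reference.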

Additional observations from a re-analysis of the deposited data

How the results depend on the processing

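Under quantile normalization, pairwise loess, median centring, both other floors and a threshold of 3-fold, 0 of 6 members passed in the 8 comparisons. The count was 0 of 5 with each other reading of a gene, 0 of 4 with the 75th percentile filter, 0 of 7 without a filter, and 0 of 6 with the average reference, which applies to the 6 comparisons with untreated. At 1.5-fold the counts were 1 for pycnogenol serum against control serum, 2 for pycnogenol serum against untreated, 1 for catechin against untreated and 1 for taxifolin against epicatechin. ERRFI1 lay at -0.75 to -0.69 for pycnogenol serum against control serum over 7 settings, and EGFR at -0.82 to -0.061 for pycnogenol serum against untreated, the smallest when its 9 probe sets, 6 of them dim, were averaged. The count of members outside the 5 arrays without test serum was 0 with median centring, 0 when probe sets were averaged and 3 with quantile normalization, which adds ERRFI1, against 2, and it was 2 under the other 6 settings. The share of all genes outside was 29.6% with the processing used above. It was not computed under the other settings, so these counts have no matching background. Median centring moved the list of genes induced through ERK to a median of -0.35 for pycnogenol serum and -0.13 for control serum against untreated, and it moved the median of all genes too. NRG1 with catechin was at -0.30 without _x_at and _s_at probe sets, which leaves a pair of dim ones, of which the other was at 0.36, and ERBB2 for taxifolin against epicatechin at 0.090 when its 3 probe sets, 2 of them dim, were averaged. No paired analysis was possible because each group held 1 array. Whether dim signals exceed background was not tested, since the table holds no detection calls.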
